A study of Saccharomyces cerevisiae S288C with 6 samples.

Results

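The nuclear tRNA genes of budding yeast were examined in 6 libraries of Saccharomyces cerevisiae S288C, the laboratory strain of the reference genome. Of the 7126 rows of the deposited gene table, 275 were named as nuclear tRNA genes, and 73 of these were chosen by their level, a mean of at least 1 normalized count over the 6 libraries. These 73 are described here, and their level is a description, not a finding. A normalized count is a number of reads divided by a size factor of the library. The 3 libraries labelled ltv1 deletion came from strain EDS615 with LTV1 deleted on both copies (ltv1∆/ltv1∆), and the 3 labelled wild type came from strain EDS76. The Ltv1 protein helps to assemble the 40S ribosomal subunit, and the comparison asks what its loss changes. All samples were grown at 30°C in YPD, a rich medium, to mid-exponential phase. Each genotype is 1 named strain. Whether the replicates came from separate cultures is not in the labels, and every p-value given here rests on the scatter among 6 libraries, which may be technical.

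Transfer RNAs carry amino acids to the ribosome and read the codons of the messenger RNA with their anticodon. In the nucleus their genes are transcribed by RNA polymerase III from promoter elements inside the gene, which TFIIIC binds and which bring in TFIIIB. The transcript is trimmed at both ends, given a CCA end, modified at many bases and exported, and it is spliced where it holds an intron. These steps are not listed in order. Yeast keeps several copies of most tRNA genes, often identical in sequence, on different chromosomes. Mature tRNAs carry no poly(A) tail, and the libraries are labelled as polyA RNA read as 3′ tags, so how these counts relate to the cell's pool of mature tRNA was not tested.

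The genes that carried most of the reads, and those whose rows or anticodon sums passed the test, are shown here because their copies decide how the counts can be read. The sequences are those of RefSeq's R64 genome on the strand of the gene, 5′ to 3′, as DNA, with the anticodon in capitals (a T stands for the U of the RNA). The Pro-AGG gene tP(AGG)N, also called SUF10, lies at chrXIV:631846-631917 on the minus strand, and its only other copy, tP(AGG)C or SUF2, has the same 72 bases at chrIII:123577-123648 on the minus strand. The Val-AAC sequence is that of 13 identical genes among 14. The Leu-UAA sequence is shared by 7 genes and is 84 bases long. The Lys-CUU sequence is shared by 14 genes, of which tK(CUU)F lies at chrVI:226688-226760 on the minus strand. The Ile-AAU sequence is shared by 13 genes, of which tI(AAU)B lies at chrII:197494-197567 on the plus strand. The Arg-ACG gene tR(ACG)J, at chrX:233939-234011 on the plus strand, occurs once and differs from the sequence of the other 5 Arg-ACG genes by A43G and A57G. In these tokens the base of the shared sequence comes first, and positions count from 1 at the 5′ end. Each gene shown is a single exon in the annotation.
tP(AGG)N: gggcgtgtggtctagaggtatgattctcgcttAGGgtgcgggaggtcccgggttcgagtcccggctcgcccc
Val-AAC, 13 copies: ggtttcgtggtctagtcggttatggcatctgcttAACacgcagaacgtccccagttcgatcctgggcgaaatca
Leu-UAA, 7 copies: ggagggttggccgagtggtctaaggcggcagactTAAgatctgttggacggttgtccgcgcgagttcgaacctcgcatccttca
Lys-CUU, 14 copies: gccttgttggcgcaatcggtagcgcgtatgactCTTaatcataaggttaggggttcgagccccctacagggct
Ile-AAU, 13 copies: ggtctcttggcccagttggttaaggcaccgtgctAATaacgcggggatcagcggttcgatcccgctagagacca
tR(ACG)J: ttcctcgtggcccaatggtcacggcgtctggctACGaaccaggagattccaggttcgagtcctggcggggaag
Arg-ACG, 5 copies: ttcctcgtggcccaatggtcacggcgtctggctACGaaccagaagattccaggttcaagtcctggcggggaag
All of these sequences hold the motif GTTCNANNC, which lies in the internal promoter's B box. Searched on both strands, it was in 98.2% of the 275 genes on the gene's own strand and in 0.727% on the other strand.

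The libraries held between 1002573 and 1248710 recovered reads. LTV1 itself went against the labels. It stood at 680, 3.22 and 6.40 normalized counts in the libraries labelled ltv1 deletion 1, 2 and 3, against 29.2, 191 and 8.77 in those labelled wild type 1, 2 and 3. The library labelled ltv1 deletion 1 thus had the highest LTV1 count of all, and that labelled wild type 3 was near the deletion libraries 2 and 3. Directions below follow the labels, and the summed levels and the called rows and anticodons are also given without the libraries labelled ltv1 deletion 1 and wild type 3.

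Nuclear tRNA rows summed higher in the libraries labelled ltv1 deletion, and 3 anticodons took up much of the difference. The 73 rows together had 301.7, 258.0 and 520.0 normalized counts in ltv1 deletion libraries 1, 2 and 3, against 153.6, 213.5 and 121.8 in wild-type libraries 1, 2 and 3. Deletion library 3 was the highest, wild-type library 3 the lowest, and the groups did not overlap. The means were 359.9 ± 140.4 in ltv1 deletion and 163.0 ± 46.5 in wild type (SD, n = 3 each), a ratio of 2.21 and a log2 ratio of 1.14. No p-value is given for this sum, since 3 against 3 libraries allow no exact permutation p under 0.1. Without the libraries labelled ltv1 deletion 1 and wild type 3 the log2 ratio was 1.08. Without deletion library 3 it was 0.78, and without wild-type library 2 it was 1.39, the ends of the range over single libraries left out.

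In reads, the 73 rows held 287, 240 and 569 in the ltv1 deletion libraries, against 158, 205 and 125 in the wild-type libraries. Scaled to each library's recovered reads, as RPM, that is 266 (95% exact binomial interval 236 to 299), 222 (195 to 252) and 472 (434 to 512) in ltv1 deletion, against 127 (108 to 148), 204 (177 to 234) and 105 (87.7 to 126) in wild type. These intervals cover counting error only, and those of deletion library 2 and wild-type library 2 overlap. In bulk libraries such as these, fewer cells of a type and less RNA per cell cannot be told apart. A mean over these same libraries divided the 73 rows from the other 202, so the ratios of the sets cannot be compared. The other 202 nuclear tRNA rows, those under the mean of 1, did not separate the groups. They summed to 24.2, 26.9 and 24.7 normalized counts in ltv1 deletion, against 39.8, 30.2 and 24.4 in wild type, with overlap and a ratio of 0.80 (0.74 without the libraries labelled ltv1 deletion 1 and wild type 3). With them the sum of all 275 rows was 326, 285 and 545 in ltv1 deletion, against 193, 244 and 146 in wild type, a ratio of 1.98 (1.90 without those libraries).

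**Figure D1:**
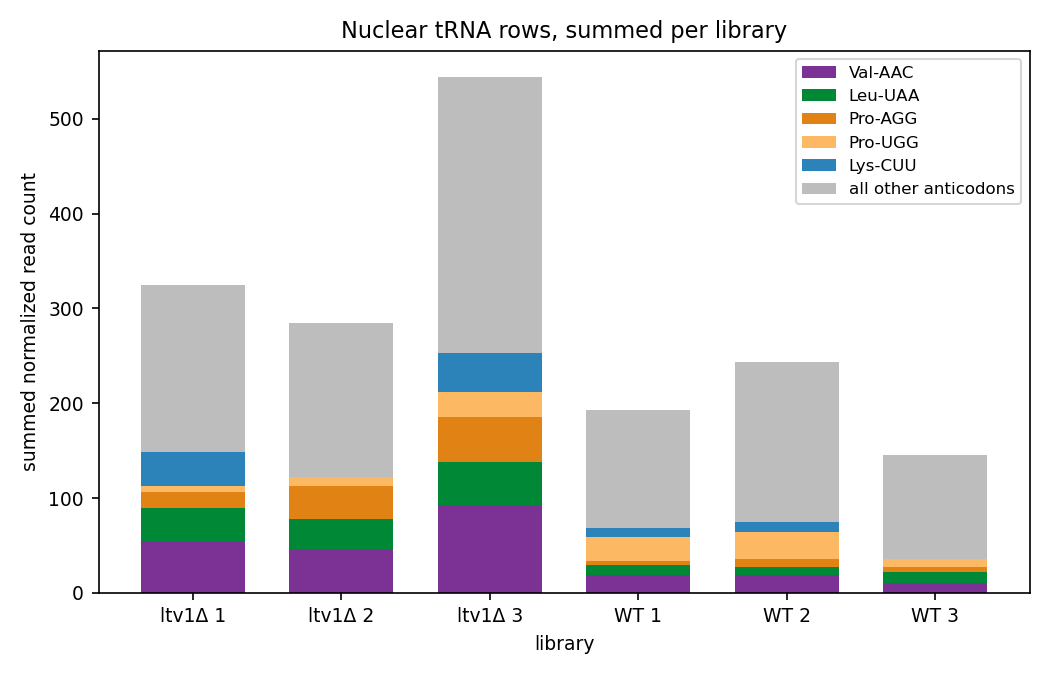
Summed normalized read count of the nuclear tRNA rows in each library, stacked by anticodon, without tX(XXX)D, whose name gives no anticodon. Libraries are ltv1 deletion (ltv1Δ) 1 to 3 on the left and wild type (WT) 1 to 3 on the right. The Val-AAC, Leu-UAA and Pro-AGG segments are taller in every deletion library (together 106, 113 and 186) than in every wild-type library (34.0, 35.4 and 27.3).

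Because copies of an anticodon are near-identical, the nuclear tRNA rows were summed by anticodon and tested in a table where these sums replaced the rows. All nuclear tRNA rows were summed but tX(XXX)D, whose name gives no anticodon. Val-AAC, Leu-UAA, Pro-AGG and Val-UAC were higher in ltv1 deletion, and 0 of the 35 tested sums were called lower. The test was limma on log2(normalized count + 1) with Benjamini-Hochberg adjustment over all 6257 features and a threshold of 0.05. On this scale the change of low values is understated. Over all features there 7.3% were called higher and 5.45% lower, so 4 of 35 sums called higher is near the background and is not a result about tRNA genes as a group. At an unadjusted p under 0.05 there were 9 sums, all of them higher. The share of all features at this unadjusted p is not given here, so that count is a description only.

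Val-AAC tRNA, which reads valine codons, had the highest mean of the 41 anticodons. Its sum was 54.7, 46.2 and 92.3 normalized counts in ltv1 deletion libraries 1 to 3, against 18.5, 18.7 and 10.7 in wild-type libraries 1 to 3. Every deletion library lay above every wild-type library. The means were 64.4 ± 24.5 in ltv1 deletion and 16.0 ± 4.55 in wild type, resting on 196 and 48 reads. The log2 fold change was 1.92 ± 0.35 (SE, limma, adjusted p = 0.0247), and it was 1.76 without the libraries labelled ltv1 deletion 1 and wild type 3 (adjusted p = 0.141).

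Leu-UAA tRNA, a leucine tRNA with the long variable arm of its class, showed the tightest groups of the 4. It had 34.7, 31.2 and 45.7 normalized counts in the ltv1 deletion libraries, against 10.7, 8.33 and 11.7 in the wild-type libraries. The lowest deletion library was still well above the highest wild-type library. The means were 37.2 ± 7.57 in ltv1 deletion and 10.2 ± 1.73 in wild type, from 112 and 31 reads. The log2 fold change was 1.76 ± 0.25 (SE, limma, adjusted p = 0.0191), and 1.89 without the libraries labelled ltv1 deletion 1 and wild type 3 (adjusted p = 0.129).

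Pro-AGG tRNA, 1 of the 2 proline anticodons of yeast and encoded by SUF10 and SUF2 alone, had the largest fitted log2(value + 1) fold change among the tested sums. Leu-UAG had 4.20, 3.22 and 0.914 normalized counts in ltv1 deletion, against 0, 1.04 and 0 in wild type. Its ratio of means was larger, 8.01 beside 5.53 for Pro-AGG, and it was not called (limma, adjusted p = 0.0826). Leu-UAG rests on 8 reads in ltv1 deletion and 1 in wild type. It passed the mean of 1 through its deletion libraries alone. The ratio and p-value of Leu-UAG are therefore a description only, and its ratio cannot be ranked against that of Pro-AGG. Pro-AGG stood at 16.8, 35.5 and 47.5 normalized counts in the ltv1 deletion libraries, against 4.86, 8.33 and 4.87 in the wild-type libraries. The groups did not overlap, with deletion library 1 the closest to wild type. The means were 33.3 ± 15.5 in ltv1 deletion and 6.02 ± 2.00 in wild type, from 101 and 18 reads. The log2 fold change was 2.21 ± 0.41 (SE, limma, adjusted p = 0.0257), and 2.51 without the libraries labelled ltv1 deletion 1 and wild type 3 (adjusted p = 0.126).

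Val-UAC, the second valine anticodon by level, was low, with 7.36, 6.45 and 12.8 normalized counts in the ltv1 deletion libraries, against 2.92, 4.17 and 1.95 in the wild-type libraries. It rests on 27 reads in ltv1 deletion and 9 in wild type. Its log2 fold change was 1.28 ± 0.33 (SE, limma, adjusted p = 0.0475), and it was 1.17 without the libraries labelled ltv1 deletion 1 and wild type 3 (adjusted p = 0.197). The call was lost in 15 of 18 alternatives. The calls of Val-AAC, Leu-UAA and Pro-AGG held in 12 of 18 alternatives, among them both other scalings, both other pseudocounts, edgeR and DESeq2. Of the 4 calls, 1 was left without deletion library 1, 0 without deletion library 2, 0 without deletion library 3, 2 without wild-type library 1 and 0 without wild-type library 3. Over all features 28, 67, 1, 389 and 2 were called in the same fits, and 0 without deletion library 1 and wild-type library 3 together, beside 798 with all 6 libraries. Without wild-type library 2 the count was 6 sums, beside 836 of all features.

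**Figure D2:**
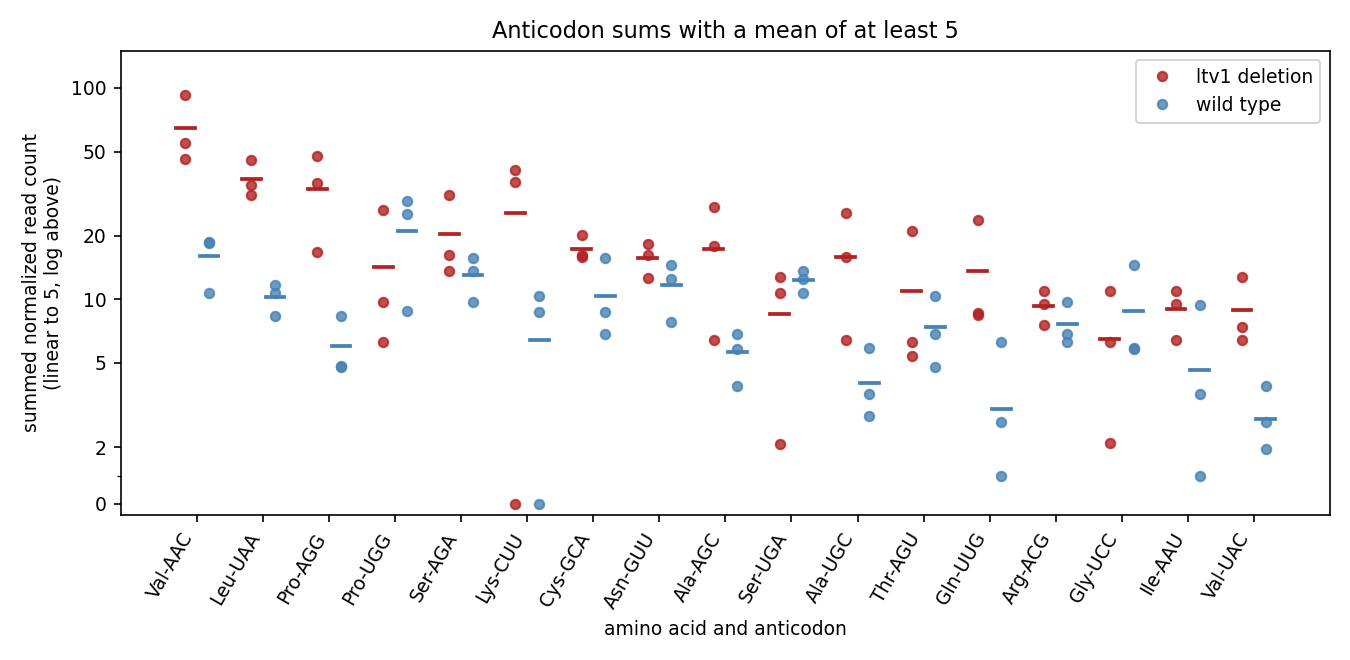
Summed normalized read count (linear to 5, logarithmic above) of the 17 anticodons with a mean of at least 5, in order of their mean. Each dot is a library, red (left) for ltv1 deletion and blue (right) for wild type, and bars are group means. The dots do not overlap for Val-AAC, Leu-UAA and Pro-AGG, but do for Pro-UGG, Ser-AGA and Lys-CUU.

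The next anticodons by level did not pass the test. Pro-UGG, the other proline anticodon, had 6.31, 9.67 and 26.5 normalized counts in the ltv1 deletion libraries, against 25.3, 29.2 and 8.77 in the wild-type libraries. Its log2 fold change was negative, -0.62 (limma, adjusted p = 0.511), and its groups overlapped. Lys-CUU had 35.7, 0 and 41.1 in ltv1 deletion, against 8.75, 10.4 and 0 in wild type, so that 1 library of each group held no read. Its log2 fold change of 1.27 (limma, adjusted p = 0.613) turned to -0.70 without the libraries labelled ltv1 deletion 1 and wild type 3.

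Ser-AGA had 13.7, 16.1 and 31.1 normalized counts in ltv1 deletion, against 9.72, 15.6 and 13.6 in wild type (limma, adjusted p = 0.325). Cys-GCA had 15.8, 16.1 and 20.1 in ltv1 deletion, against 8.75, 15.6 and 6.82 in wild type (limma, adjusted p = 0.159). Asn-GUU had 12.6, 16.1 and 18.3 in ltv1 deletion, against 14.6, 12.5 and 7.80 in wild type (limma, adjusted p = 0.346). Cys-GCA was separated by a narrow gap, and the other pair overlapped.

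Over the 35 tested sums the fold change was positive in 30 and negative in 5, with a median log2 fold change of 0.41, beside -0.01 and 49.6% positive over the whole table. The groups did not overlap in 8 of the 35, always with ltv1 deletion higher, beside 20.6% of all features higher and 18.6% lower without overlap. In addition to the 4 called and Cys-GCA, these were Ala-UGC, Gln-UUG and Arg-CCU, whose log2 fold changes were 1.53, 1.77 and 1.01 and whose adjusted p were 0.0776, 0.0836 and 0.111 (limma). Without Val-AAC, Leu-UAA and Pro-AGG, which made up 28.9% of the summed mean, the other 252 rows summed to 220, 172 and 359 in ltv1 deletion, against 159, 208 and 119 in wild type, and the groups overlapped. Their ratio was 1.54, beside 4.18 for the 23 rows of the 3 anticodons, which were picked after their values were seen.

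**Figure D3:**
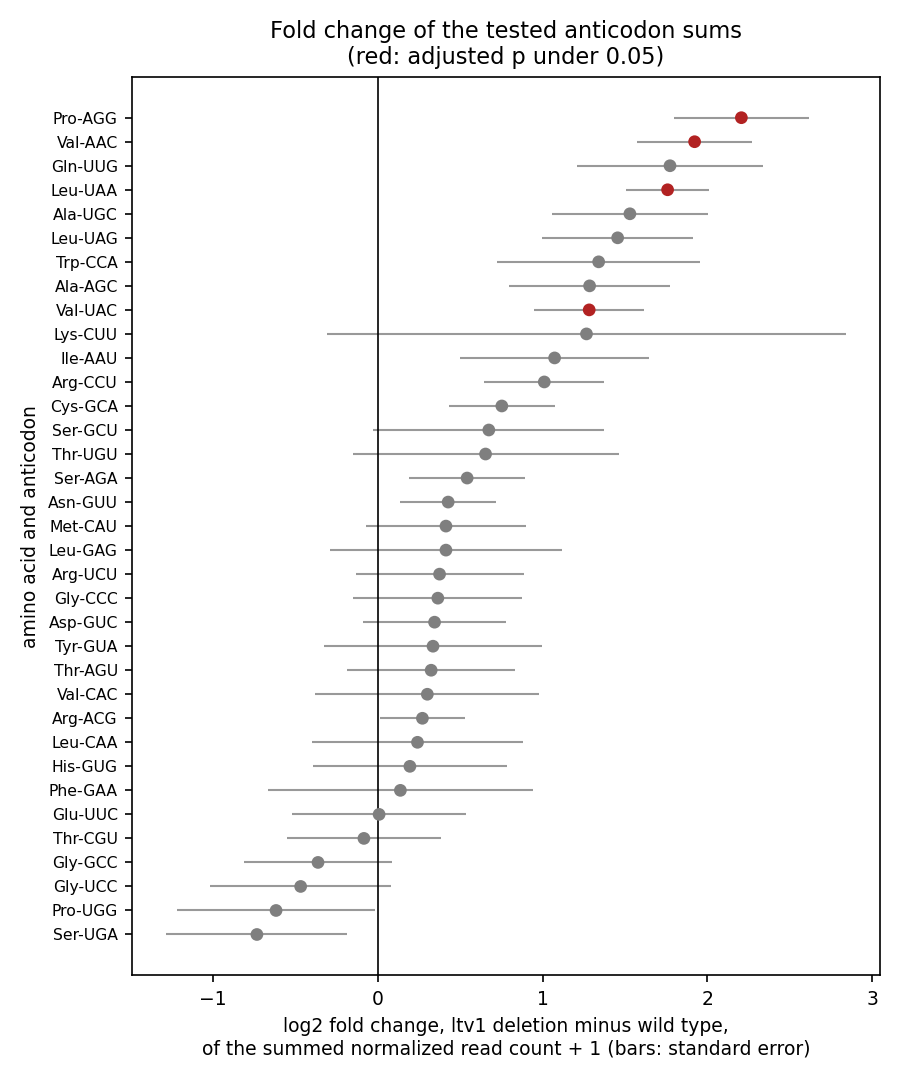
Log2 fold change of the summed normalized count + 1, ltv1 deletion minus wild type, for the 35 tested anticodon sums, with the standard error as bars and sums called by limma (adjusted p under 0.05) in red. The called sums are Pro-AGG, Val-AAC, Leu-UAA and Val-UAC, and 30 of the 35 points lie right of 0.

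The level of an anticodon did not closely follow its number of genes. Per the R64 annotation the spliced tRNAs are 71 to 100 bases long and the libraries are 3′ tags, so the sums of normalized counts are set side by side here without a length term. Gly-GCC and Asp-GUC, with 16 genes each, averaged 3.23 and 2.97 normalized counts over the 6 libraries, while Pro-AGG, with 2 genes, averaged 19.6. Over 41 anticodons the Spearman correlation of gene number with mean level was 0.41 and the Pearson correlation 0.33, as a description over anticodons that share libraries. Gln-CUG and Ser-CGA had no read in any library, which bounds each at the worth of 3 reads, 2.74 to 3.22 normalized counts per library.

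Tested as single rows, 4 of the 73 were higher in ltv1 deletion and 0 lower (limma, adjusted over 6295 features), beside 7.13% higher and 5.16% lower over all rows tested. The share called higher is near this background and is not a result about tRNA rows. At an unadjusted p under 0.05 there were 13, of which 12 were higher and 1 lower. The share of all rows at this unadjusted p is not given here, so these counts are a description only. The quasi-likelihood test of edgeR called 5 and DESeq2 2, all higher. Beside them stand 9.09% and 9.42% of all rows higher and 7.9% and 8.51% lower with these tools. Of edgeR's 5, 3 were among limma's 4, without tR(ACG)J. The others were tK(CUU)F and tV(AAC)M2, which passed the mean of 1 through their deletion libraries alone. The fold change was positive in 42 rows and negative in 31, with a median log2 of 0.50, or 0.41 over the 61 rows left when rows with 1 group at 0 are set to their bound of 3 reads. Over all rows tested the median was -0.01 and 49.5% were positive. A row passes a mean of 1 through its higher group alone, and 25 of the 73 rows were at 0 in all wild-type libraries and 16 in all ltv1 deletion libraries. The groups did not overlap in 5 rows, with ltv1 deletion higher in all 5, beside 20.4% higher and 18.5% lower over all rows tested. Of the 32 rows with reads in both groups, 17 were positive, with a median log2 of 0.18.

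The called row with the smallest p was tL(UAA)B1, 1 of the identical Leu-UAA genes. It had 28.4, 22.6 and 17.4 normalized counts in the ltv1 deletion libraries, against 0, 0 and 0 in the wild-type libraries. Against a floor of 3 reads in each wild-type library it was at least 7.62-fold higher (limma, adjusted p = 0.00186). This row passed the mean of 1 through its deletion libraries alone, so its bound and p-value are a description only. All Leu-UAA reads of the wild-type libraries stood in the identical copies tL(UAA)B2 or tL(UAA)J, and the sum over the copies had a ratio of means of 3.63. The row's bound is therefore no measure of Leu-UAA as a whole. SUF10, the row tP(AGG)N, had 16.8, 17.2 and 41.1 in ltv1 deletion, against 0, 4.17 and 0 in wild type, a log2 fold change of 3.79 ± 0.70 (SE, limma, adjusted p = 0.0272). Only wild-type library 2 held reads of it among the wild-type libraries, 4 in all. The log2 fold change of the row was 4.47 at a pseudocount of 0.5 and 2.20 at a pseudocount of 5. The call of this row was lost in 7 of 17 alternatives, among them leaving out any single library but wild-type library 2. Its identical copy SUF2 had 4.86, 4.17 and 4.87 in wild-type libraries 1 to 3. The sum over both copies had a log2 fold change of 2.21, so the row's value is no measure of Pro-AGG as a whole.

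The row tI(AAU)B had 9.46, 6.45 and 11.0 normalized counts in ltv1 deletion, against 0.972, 0 and 0 in wild type. The wild-type libraries held 1 read of it in all, which gives a ratio of reads of 27.6 with a 95% exact counting interval of 4.55 to 1130 (limma, adjusted p = 0.0176). This row, too, passed the mean of 1 through its deletion libraries alone, so its ratio and p-value are a description only. The anticodon sum that holds it, Ile-AAU, had 9.46, 6.45 and 11.0 in ltv1 deletion, against 0.972, 9.37 and 3.90 in wild type, and was not called (limma, adjusted p = 0.240). The row was thus separated between the groups while the sum of its identical copies was not. Without the libraries labelled ltv1 deletion 1 and wild type 3, 0 of the 73 rows were called, and 0 of all 6295 features. The log2 fold changes were then 3.61 for tP(AGG)N, a value that depends on the pseudocount, and 1.64 for tR(ACG)J. Those of tL(UAA)B1 and tI(AAU)B, with 0 and 1 wild-type reads, also depend on the pseudocount and are not given.

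Which copy of an anticodon held the reads changed from library to library. In R64 the 275 genes have 70 distinct sequences, and in 18 anticodons with at least 2 genes all copies are identical. Over these anticodons there were 69 pairs of an anticodon and a library with at least 5 reads, and in 59 of them (85.5%) all reads stood in a single copy. In 13 of the 13 anticodons with at least 2 such libraries, the copy with the most reads was not the same in all of them. Asn-GUU stood in a different copy in each library: tN(GUU)P, tN(GUU)O2 and tN(GUU)C in ltv1 deletion libraries 1 to 3, and tN(GUU)N1, tN(GUU)L and tN(GUU)K in wild-type libraries 1 to 3. For these genes a row's value is that of the copy the reads were assigned to, and the sum over copies is the value to set between groups.

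Val-AAC shows the same split. In ltv1 deletion library 2 its 46.2 normalized counts all stood in tV(AAC)M2, while library 1 had 27.3 each in tV(AAC)M2 and tV(AAC)M3. In deletion library 3 tV(AAC)G2 held 51.2, tV(AAC)L 33.8 and tV(AAC)J 7.31. In wild type tV(AAC)M1 held 18.5 in library 1, tV(AAC)M3 16.7 in library 2 and tV(AAC)G2 10.7 in library 3. No row of Val-AAC passed the test (limma, adjusted p = 0.131 for tV(AAC)M2, 0.804 for tV(AAC)G2 and 0.938 for tV(AAC)M3), although their sum did. With edgeR the row tV(AAC)M2 was called (adjusted p = 0.0479).

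Leu-UAA reads stood mostly in tL(UAA)B1 in ltv1 deletion libraries 1 and 2, which held 81.8% and 72.4% of them there, and in tL(UAA)D in deletion library 3, with 62.0%. In wild type all of them stood in tL(UAA)B2 in libraries 1 and 2 and in tL(UAA)J in library 3. The row tK(CUU)F held every Lys-CUU read of the ltv1 deletion libraries, 35.7 normalized counts in library 1, 0 in library 2 and 41.1 in library 3. It had 0 in all 3 wild-type libraries and was not called (limma, adjusted p = 0.129). With edgeR it was called (adjusted p = 0.0387).

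**Figure D4:**
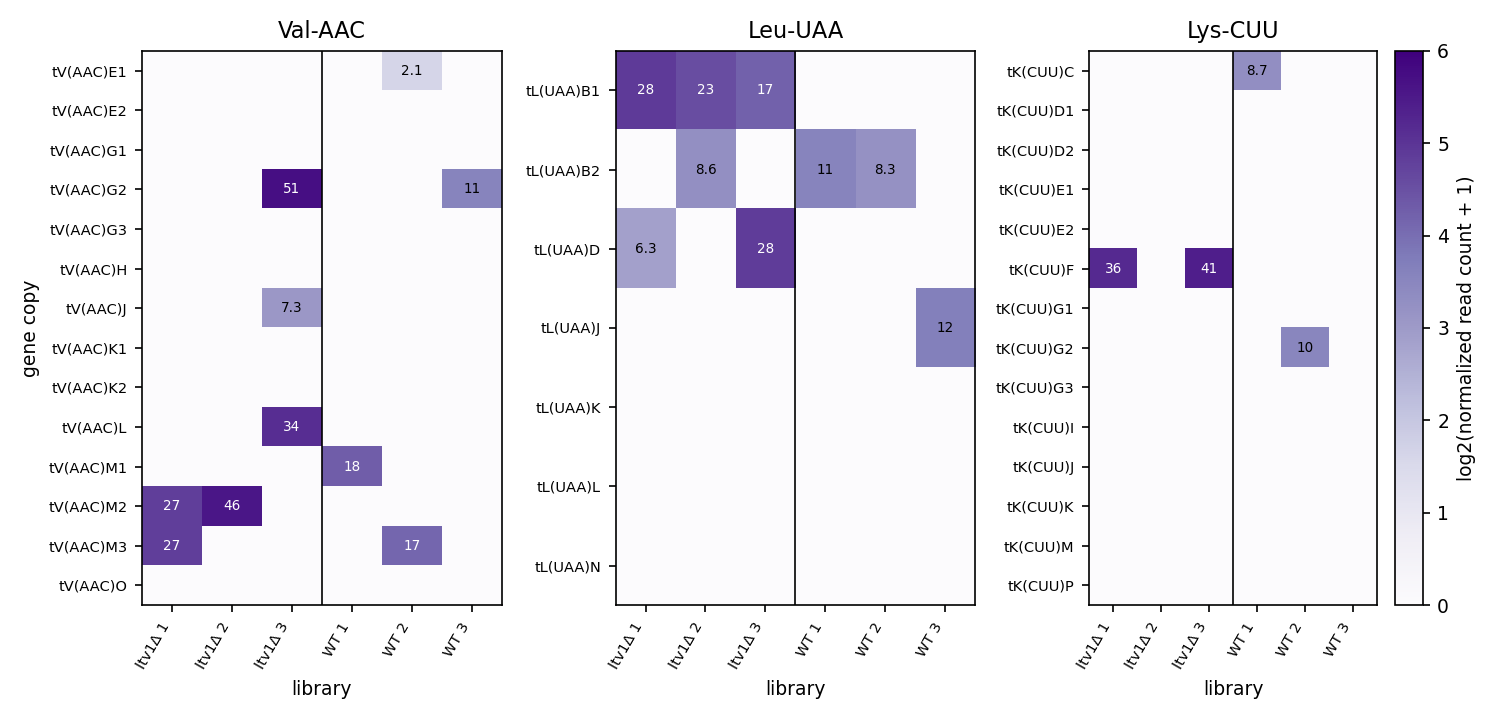
Normalized read count of each Val-AAC, Leu-UAA and Lys-CUU gene row (down) in each library (across), ltv1 deletion 1 to 3 left of the line and wild type 1 to 3 right of it, with colour on a log2(count + 1) scale and printed values where a row has reads. Most cells are empty, and the filled copy differs between libraries, as for tK(CUU)F in ltv1 deletion libraries 1 and 3 against tK(CUU)C and tK(CUU)G2 in wild-type libraries 1 and 2.

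The other rows with high means varied between libraries in the same way. The row tA(UGC)L, an alanine tRNA gene, had 15.8, 0 and 25.6 normalized counts in ltv1 deletion, against 0, 0 and 0 in wild type (limma, adjusted p = 0.132). The second alanine row, tA(AGC)K2, had 0, 0 and 27.4 in ltv1 deletion, against 5.83, 0 and 6.82 in wild type. SUF2, the row tP(AGG)C, had 0, 18.3 and 6.40 in ltv1 deletion, against 4.86, 4.17 and 4.87 in wild type. The cysteine row tC(GCA)B had 0, 16.1 and 0 in ltv1 deletion, against 0, 15.6 and 6.82 in wild type. Each of these 4 rows was at 0 in at least 1 ltv1 deletion library, and none was called. Over the 73 rows 28 had reads in 1 library alone and 5 had reads in all 6.

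Copies were compared over the whole gene, intron included, and the sequence of 8 of the 73 rows occurred once. Reads of such a gene cannot be split between identical genes, but tP(UGG)L, 1 of the 8, holds an intron. The 10 Pro-UGG genes have 7 gene sequences and 2 spliced ones, so spliced reads of it may be shared with other copies. The 8 rows had reads in a median of 5 libraries, and 0 of the 8 in a single library. Rows with identical copies had reads in a median of 2 libraries, and 25 of 61 in a single library. A further 4 rows could not be tied to 1 sequence. The unique arginine gene tR(ACG)J was the only called row of the 8. It had 4.20, 4.30 and 6.40 normalized counts in ltv1 deletion, against 0.972, 1.04 and 1.95 in wild type, a log2 fold change of 1.37 ± 0.27 (SE, limma, adjusted p = 0.0305). The groups did not overlap, but the reads were few, and their ratio of 3.83 has a 95% exact counting interval of 1.22 to 15.9. Its call was lost in 11 of 15 alternatives.

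The arginine gene HSX1, the row tR(CCU)J and the only gene of its anticodon, had 2.10, 3.22 and 6.40 normalized counts in ltv1 deletion, against 1.94, 1.04 and 0.975 in wild type (limma, adjusted p = 0.115). The proline gene tP(UGG)L had 0, 0 and 0 in ltv1 deletion, against 0, 22.9 and 6.82 in wild type, and its groups met at 0 (limma, adjusted p = 0.149). It was the only row lower at an unadjusted p under 0.05. The glycine gene SUF3, the row tG(CCC)D, had 4.20, 1.07 and 5.48 in ltv1 deletion, against 5.83, 3.12 and 0 in wild type, with no separation. The threonine gene TRT2, the row tT(CGU)K, had 2.10, 1.07 and 3.66 in ltv1 deletion, against 0.972, 2.08 and 4.87 in wild type, also with overlap.

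The rows were also summed by whether their genes hold an intron. The tRNA splicing endonuclease cuts the intron out, and the ligase Trl1 joins the exons. The 57 rows of the 9 anticodons whose genes all hold an intron summed to 28.4, 25.8 and 39.3 normalized counts in ltv1 deletion, against 31.1, 44.8 and 18.5 in wild type. These groups overlapped, and the ratio of means was 0.99. The 214 rows of the anticodons without introns summed to 296, 255 and 502 in ltv1 deletion, against 161, 197 and 127 in wild type, a ratio of 2.17 with no overlap. Ser-GCU, with an intron in 3 of its 4 genes, and the row tX(XXX)D are in neither sum. Pro-UGG is in the intron group, and Val-AAC, Leu-UAA and Pro-AGG are in the other. Without the libraries labelled ltv1 deletion 1 and wild type 3 the ratios were 0.86 for the intron group and 2.11 for the other. The difference between the ratios was not tested.

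By amino acid, the sums did not overlap between the groups for alanine, cysteine, glutamine, leucine and valine, with ltv1 deletion higher. These are 5 of 20 sums (25%), beside 20.6% of features higher without overlap in the anticodon table, a share near the background and not a result about these amino acids. For alanine the gap was narrow, with 12.9 in deletion library 2 against 12.7 in wild-type library 3. Valine rows summed to 64.1, 52.7 and 109 normalized counts in ltv1 deletion, against 24.3, 22.9 and 13.6 in wild type, a ratio of 3.71 (3.42 without the libraries labelled ltv1 deletion 1 and wild type 3). Leucine rows summed to 41.0, 38.7 and 53.0 in ltv1 deletion, against 16.5, 13.5 and 11.7 in wild type, a ratio of 3.18 (3.05 without those libraries). Proline rows overlapped, with 23.1, 45.1 and 74.0 in ltv1 deletion, against 30.1, 37.5 and 13.6 in wild type. Within them Pro-AGG had a positive and Pro-UGG a negative fold change. Glycine and methionine rows showed no separation, with means of 14.2 ± 4.32 in ltv1 deletion against 16.8 ± 8.11 in wild type for glycine, and 1.68 ± 0.57 against 1.30 ± 1.48 for methionine.

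Mitochondrial tRNA genes, which are transcribed by another polymerase inside the mitochondrion, had a lower sum in ltv1 deletion. Their 24 rows summed to 15.8, 10.7 and 13.7 normalized counts in ltv1 deletion, against 22.4, 40.6 and 19.5 in wild type, with no overlap and a ratio of 0.49 (0.39 without the libraries labelled ltv1 deletion 1 and wild type 3). Of the 4 rows tested, 0 were called by limma, and all 4 fold changes were negative, with a median log2 of -0.85. The smallest adjusted p among them was 0.182, for tD(GUC)Q, at 2.10, 3.22 and 0.914 in ltv1 deletion against 3.89, 6.25 and 2.92 in wild type.

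Of the 73 rows, 52 could be placed at 1 position in R64, 15 by symbol and 37 by the isotype, anticodon and chromosome letter in their name, a further 17 matched a sequence but not 1 position, and 4 matched several differing copies. Of the 52, 0 overlapped an annotated gene other than a tRNA. In 7 of 52 (13.5%) a gene on the same strand ended within 500 bases before the tRNA gene, beside 12 of 116 (10.3%) placed nuclear tRNA rows under the mean of 1. The nearest such case among the called rows was MEF2, a mitochondrial translation factor, whose end lies 178 bases before tR(ACG)J. MEF2 had 153, 143 and 216 normalized counts in ltv1 deletion, against 155, 200 and 192 in wild type, a log2 fold change of -0.11 (limma, adjusted p = 0.796). Over the 6 rows with a tested neighbour the correlation of the fold changes was -0.48 (Pearson) and -0.54 (Spearman), given as a description. A run of at least 6 A in the gene or the 60 bases after it was in 6 of 52 rows (11.5%). Such a run was in 9 of 116 (7.76%) of the rows under the mean of 1. The longest run was 10 bases, at tK(CUU)F, and both A-run medians were 3. Where copies are identical, which row passed the mean of 1 depends on the copy the reads were assigned to. The neighbour and A-run shares are therefore a description, and the origin of the reads was not tested.

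Among other products of RNA polymerase III, snR6, RNA170 and RPR1 were higher in ltv1 deletion. They are the 3 of 5 tested that limma called, with 0 called lower, beside 7.13% higher and 5.16% lower over all features. The list held 11 rows, of which those of the 5S ribosomal RNA genes were not tested. The U6 spliceosomal RNA snR6 averaged 1319 ± 472 normalized counts in ltv1 deletion and 234 ± 42.0 in wild type (SD, n = 3 each), a log2 fold change of 2.44 (limma, adjusted p = 0.0211). RPR1, the RNA of RNase P, which cuts the 5′ leader from tRNA, had 211, 259 and 455 in ltv1 deletion, against 71.9, 94.8 and 45.8 in wild type, a log2 fold change of 2.09 (limma, adjusted p = 0.0277). RNA170 had 42.0, 73.1 and 77.7 in ltv1 deletion, against 15.5, 15.6 and 11.7 in wild type, a log2 fold change of 2.06 (limma, adjusted p = 0.0211). SCR1, the RNA of the signal recognition particle, had 5161, 5378 and 7481 in ltv1 deletion, against 3072, 4859 and 3802 in wild type, and was not called (log2 fold change 0.62, adjusted p = 0.172). snR52 was near the floor and not called. For snR6, RPR1, RNA170 and SCR1, deletion library 1 was the lowest of the deletion libraries. The calls of snR6, RPR1 and RNA170 were lost without the libraries labelled ltv1 deletion 1 and wild type 3, where 0 of 6295 features were called.

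**Figure D5:**
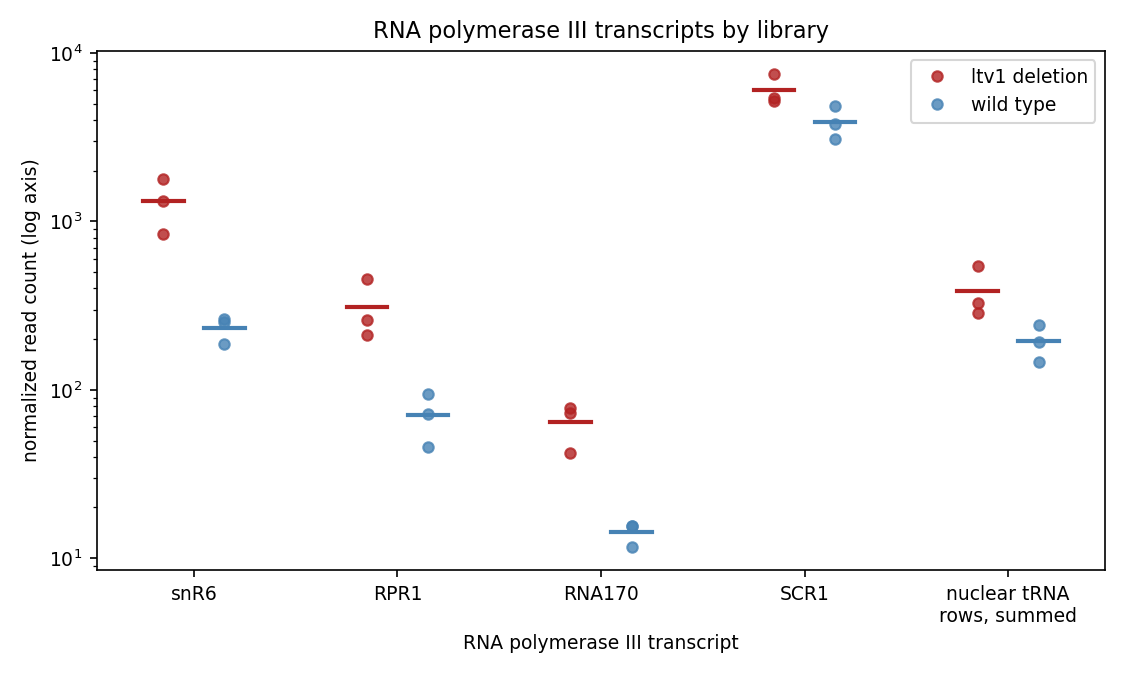
Normalized read count (log axis) of 4 RNA polymerase III transcripts and of the summed 275 nuclear tRNA rows. Red dots (left) are ltv1 deletion libraries, blue dots (right) are wild-type libraries, and bars are group means. Deletion dots lie above wild-type dots for all 5 columns, and the gap is widest for snR6.

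Among the proteins that make tRNA, subunit genes of RNA polymerase III were called higher, and none of its initiation factor genes passed the test. In RNA polymerase III, 8 of 17 tested genes were called higher and 0 lower (limma, adjusted over 6295 features, beside 7.13% higher overall), with a median log2 fold change of 1.20. RPC53, a subunit needed for termination and reinitiation, averaged 238 ± 36.5 normalized counts in ltv1 deletion and 73.7 ± 14.7 in wild type, a log2 fold change of 1.69 (adjusted p = 0.0211). RPC82 changed by 1.40 and RPC25 by 2.51. In the list of TFIIIB, TFIIIC and the repressor Maf1, 0 of 10 were called in either direction and the median was 0.01. TFC4 and BRF1 had log2 fold changes of 0.75 and 0.89 (adjusted p = 0.0866 and 0.0929), and TFC3, another TFIIIC subunit, had -0.64.

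The counts of the next lists stand beside 7.13% called higher and 5.16% called lower by limma over all 6295 features. The lists were chosen with earlier results of these data known. In the list of end processing and splicing, 5 of 19 were called higher and 0 lower, with a median log2 of 0.59. They include POP3 and RPP1, protein subunits of RNase P and RNase MRP (2.47 and 1.35), the La protein gene LHP1, which holds the 3′ end of new transcripts (1.19), and the ligase gene TRL1 (1.15). Of 7 tRNA export genes 0 were called, and LOS1, the exportin for tRNA, had 0.42 (limma, adjusted p = 0.208). In the list of TRAMP, the nuclear exosome and tRNA decay, 6 of 15 were called higher and 0 lower, with a median of 0.98. The helicase gene MTR4 changed by 2.16 and TRF5, a poly(A) polymerase of TRAMP, by 2.23. Of 59 tested genes of tRNA modification 19 were called higher and 0 lower, with a median of 0.85, among them TRM2, a tRNA methyltransferase (2.12), SMM1, a dihydrouridine synthase (1.37), and DEG1, a pseudouridine synthase (1.82). Without the libraries labelled ltv1 deletion 1 and wild type 3, 0 of the 6295 features were called, so 0 remain in these lists too. A small nucleolar and spliceosomal list of 71 tested rows had 10 higher and 0 lower, with a median of 0.55.

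The genes whose pattern over the 6 libraries was most like the summed tRNA level, out of 4691 features other than tRNA with a mean of at least 20, were snR17a, the U3 small nucleolar RNA (Pearson r = 0.993 of log2 values), VTH2 (0.987), FOB1 (0.982), PPZ1 (0.982) and SRB4 (0.981). The snR17a row had 504, 505 and 726 normalized counts in ltv1 deletion, against 344, 404 and 291 in wild type. These are descriptions over 6 libraries, in which the highest library by tRNA level was also the highest for snR17a.

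Rows at the mean of 1 that admitted members were sparse. Just above it stood tA(AGC)G at 1.07, tR(UCU)E at 1.07 and tT(AGU)N2 at 1.05, each with reads in 1 library. Just below it stood tV(UAC)B at 0.994, TGA1 (tA(UGC)A) at 0.975 and SUF6 (tG(UCC)N) at 0.972. An adjusted p is given in the authors' deposited table for 10 of the 73 rows, the smallest of which is 0.552, for tL(UAA)B1, with a log2 fold change of 0.33. The sign in the authors' deposited table matched deletion minus wild type in 100% of the rows it marks as significant. A further 62 of the 73 are marked there as low count, and 0 are marked as significant, beside 86 rows of the authors' deposited table in all.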

How the data were processed

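Expression was measured in 6 yeast libraries, 3 labelled ltv1 deletion and 3 labelled wild type. Per the labels' protocols, hot phenol was used to extract RNA, which was read as single-end 3′ tags with inline molecular identifiers. Per the submitters' processing notes, build R64 was used with R 4.1.3, DESeq2 1.34.0, Salmon, STAR, Trim Galore and FastQC. The use of identifiers and strand in counting: not given in the sources used here.

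The deposited values are a normalized signal per gene and library. Divided by 1 read's worth (0.914 to 1.07 by library), 100% of the nonzero values came out whole within 0.01, so whole reads were recovered. The authors' deposited table also holds their log2 fold changes, a standard error of each (a score here), and p-values with adjusted p-values.

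The design named limma for values divided by size factors, and limma 3.58.1 in R 4.3.3 was run without trend or robust option on log2(value + 1), over features with a mean of at least 1, adjusted over all of them. The anticodon table replaces the nuclear tRNA rows by 1 sum per anticodon. The members and lists were chosen with earlier results of these data known. Rows named are the 10 highest means, the called rows, the 8 highest and all called anticodon sums, the 3 rows on each side of the mean of 1, up to 3 genes per list, neighbours and LTV1. A few other rows, anticodons and list genes, among them the other copies and the unique genes, were named after their values were seen.

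Anticodons were found in the R64 sequence and compared with those in the row names. Of 47 rows matched by symbol, 47 had the same anticodon and chromosome, and 206 of 207 combinations of isotype, anticodon and chromosome had the same number of genes. Intervals and floors (3 reads) cover counting error only. The alternatives were other scalings, pseudocounts, filters and tests (edgeR 4.0.16, DESeq2 1.42.0 on recovered reads), a replicate block and libraries left out. Summing all 275 rows, summing without 3 anticodons, and the intron, amino acid, mitochondrial and low-row sums without the libraries labelled ltv1 deletion 1 and wild type 3 were added after seeing the data.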

Additional observations from a re-analysis of the deposited data

How the results depend on the processing

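The number of single tRNA rows called, 4, was 2 with a mean of at least 5, 2 with DESeq2, and 0 without the libraries labelled ltv1 deletion 1 and wild type 3 together. In these fits 898, 1129 and 0 of all features tested were called. The number of tRNA rows lay between 1 and 5 when single libraries were left out. Without wild-type library 1 it was 5, of which 2 were higher and 3 lower. Over all features 3, 29 and 3 were called without deletion libraries 1, 2 and 3. Without wild-type libraries 1, 2 and 3 these were 351, 767 and 3, beside 774 with all 6 libraries. The row counts are therefore a description only. The number of anticodon sums called, 4, was 0 without both of those libraries and between 0 and 6 when single libraries were left out. The log2 ratio of the summed rows stayed positive in every alternative, between 0.63 (without the AAC, UAA and AGG rows) and 1.39 (without wild-type library 2), and was 0.99 over all 275 rows.

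Whether the replicate numbers pair the samples is not in the labels. The correlations of same-numbered deviations from the group mean were -0.105, -0.198 and 0.0723. Those of differently numbered libraries lay between -0.171 and 0.278. Deviations within a group sum to 0, so these correlations cannot settle the pairing. With the replicate block 0 rows and 0 anticodon sums were called, as were 0 features of the whole table (limma). At an unadjusted p under 0.05 there were 17 rows and 9 sums, a description without the share over all features.

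Rows and sums that were not called changed sign, and the cause was not tested. The log2 fold change of tV(AAC)G2 was -1.18 to 1.90 without single libraries, and negative without deletion library 3. That of tV(AAC)M3 was -1.38 to 1.61 without single libraries (-0.46 without wild-type library 1 or 3) and -2.07 without the libraries labelled ltv1 deletion 1 and wild type 3. That of tA(AGC)K2 was 0.11 at a pseudocount of 5, 1.14 with edgeR, -1.91 to 0.50 without single libraries (0.13 and 0.22 without wild-type libraries 1 and 3) and 1.03 without both. That of tP(AGG)C was 0.19 at a pseudocount of 5, 0.81 with edgeR, -1.05 to 1.09 without single libraries and 1.12 without both. Those of tC(GCA)B and the CUU sum were 0.021 and -0.70 without both. Low counts limit all single rows: 3 reads are worth 2.74 to 3.22 normalized counts.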
